A study of Mus musculus with 16 samples.

Results

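The genes of de novo fatty acid synthesis in mouse liver were followed as 10 transcripts chosen by gene symbol: the transcription factors Srebf1 and Mlxipl, the enzymes Fasn, Acly, Acaca, Acacb, Scd1, Elovl6 and Me1, and the small regulatory protein Thrsp. All 10 had a row among the 35275 gene IDs of the deposited table, and all 10 were among the 11298 genes that passed the filter on low values. The libraries were made from total RNA of liver from WT mice and from mice with a liver-specific knockout of Zfp36l1 (LKO), kept on control or on ethanol-containing diet, with 4 libraries in each of the 4 groups. The groups are called WT control, WT ethanol, LKO control and LKO ethanol, and libraries are numbered 1 to 4 within a group in the order of the records. The product of Zfp36l1 is a zinc finger protein of the tristetraprolin family, which recognises AU-rich elements in transcripts and promotes their breakdown. The Cre line behind the deletion, the strain, sex and age of the mice, the length of feeding, the time of the last meal and whether each library is a separate mouse are not given in the sources used here, so the p-values measure the spread between these libraries.

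De novo lipogenesis turns surplus carbohydrate into fatty acids, and the liver is one of its main sites. SREBP-1c, a product of Srebf1, is a membrane-bound factor that is cut and sent to the nucleus under insulin, and ChREBP, the product of Mlxipl, is activated by sugar metabolites. Both factors act on the genes that make citrate into acetyl-CoA (Acly), acetyl-CoA into malonyl-CoA (Acaca and Acacb), malonyl-CoA into palmitate (Fasn), and palmitate into longer and unsaturated chains (Elovl6 and Scd1), with NADPH from malic enzyme (Me1). Feeding state moves these transcripts strongly in liver, and in bulk tissue fewer cells of a type cannot be told apart from less RNA per cell.

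Total reads ranged from 9890475 to 24768569 per library. WT ethanol library 2 stood apart from the rest: it was the shallowest, 22.52% of its reads were mitochondrial against 3.64 to 6.97% in the 15 others, and its Spearman correlation with other libraries across genes was 0.664 to 0.721 against 0.858 to 0.985 among those 15. Several results that rest on it are therefore given with and without it, and the rest are given with it only. Within groups, libraries 1 and 2 lay on the opposite side of the first component of variation from libraries 3 and 4, and that component, computed from deviations from group means without the 10 transcripts and without WT ethanol library 2, held 40.1% of the variance. The labels name no batch for this split. The deleted gene followed the labels: Zfp36l1 measured 9.3 to 25.5 FPKM in the 8 WT libraries and 0.572 to 1.76 in the 8 LKO libraries. Of the hepatocyte markers, Alb was at 22999.7 FPKM or more in every library. That lowest value was in WT ethanol library 2, and the 15 others were at 27582 or more. In WT ethanol library 2, Hnf4a (22.2 FPKM), Cps1 (36.5) and Tat (117) lay below the lowest of the 15 others (94, 339 and 273), and Apoa1 (34502) lay above their highest (10826). FPKM is a level per length, the fragments counted on a gene divided by its length and by the depth of the library. The 10 transcripts were counted with 180 reads (Me1 in WT ethanol library 2) to 292807 reads in a library, so counting error was at most 7.45% of a value and the spread between libraries was far larger.

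The promoters of the regulators and of the fatty acid synthase are shown because their transcripts carry the comparisons that follow, Srebf1 and Mlxipl as the factors and Fasn as the enzyme that makes palmitate. RefSeq promoter windows on GRCm38.p6, from 250 bases before to 50 bases after a start, were at hand for 9 of the 10 members (13 windows). Both strands were searched for CCAAT (the NF-Y box), CACGTG (an E-box), TCACNCCAC (a sterol response element), a pair of AGGTCA repeats with NNNN between them (an LXR element) and a pair of CANNTG E-boxes with NNNNN between them (a carbohydrate response element). A CACGTG match also fits CANNTG. The windows of Srebf1, Mlxipl and Fasn with at least 1 match are printed 5′ to 3′ along the gene's strand, as the 250 bases before the start, with the matches in capitals.
Srebf1, start at the far 5′ end of the gene, chr11:60222582-60222831, minus strand: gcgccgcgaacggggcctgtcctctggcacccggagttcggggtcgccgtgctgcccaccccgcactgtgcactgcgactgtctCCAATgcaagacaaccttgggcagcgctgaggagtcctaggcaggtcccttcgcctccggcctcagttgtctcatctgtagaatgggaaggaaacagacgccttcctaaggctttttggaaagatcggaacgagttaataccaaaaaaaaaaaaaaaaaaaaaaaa
Srebf1, internal start, chr11:60210472-60210721, minus strand: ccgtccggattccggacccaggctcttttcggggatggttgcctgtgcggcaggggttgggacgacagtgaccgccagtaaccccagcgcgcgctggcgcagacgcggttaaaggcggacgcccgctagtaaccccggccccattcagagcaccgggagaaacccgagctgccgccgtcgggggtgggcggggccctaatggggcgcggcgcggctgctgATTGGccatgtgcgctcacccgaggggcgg
Mlxipl, start at the far 5′ end of the gene, chr5:135089640-135089889, plus strand: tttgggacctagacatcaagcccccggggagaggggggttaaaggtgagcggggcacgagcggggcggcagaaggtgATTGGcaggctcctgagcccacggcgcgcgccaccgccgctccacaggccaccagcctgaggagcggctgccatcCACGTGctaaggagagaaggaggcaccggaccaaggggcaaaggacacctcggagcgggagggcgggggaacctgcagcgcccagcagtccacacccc
Mlxipl, internal start, chr5:135106641-135106890, plus strand: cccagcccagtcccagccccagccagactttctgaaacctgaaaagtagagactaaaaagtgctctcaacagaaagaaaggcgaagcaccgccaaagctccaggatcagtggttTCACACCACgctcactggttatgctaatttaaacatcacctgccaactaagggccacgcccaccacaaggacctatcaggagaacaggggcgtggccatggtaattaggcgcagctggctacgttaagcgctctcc
Fasn, chr11:120824548-120824797, minus strand: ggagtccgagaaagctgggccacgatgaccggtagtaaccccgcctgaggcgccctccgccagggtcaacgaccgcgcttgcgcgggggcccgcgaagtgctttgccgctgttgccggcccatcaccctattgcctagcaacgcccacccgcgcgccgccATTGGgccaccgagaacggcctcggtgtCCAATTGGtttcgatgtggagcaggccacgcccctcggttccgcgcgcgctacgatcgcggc
Fasn held 3 CCAAT matches, at 90, 62 and 59 bases before the start, and the last 2 overlap each other. Mlxipl held a CCAAT match 173 and a CACGTG match 98 bases before its first start, and a TCACNCCAC match 136 bases before its internal start. Srebf1 held 1 CCAAT match 166 bases before the first start and 1 at 30 bases before the internal start printed here. The 50 bases after that internal start were not found as a stretch of an annotated Srebf1 transcript. A further internal window of Srebf1 held no match. CCAAT was found in windows of 7 members (8 of the 13 windows), and in 37.41% of the 32851 windows of all genes. CACGTG occurred in 7.15% of all windows, TCACNCCAC in 1.24%, the AGGTCA pair in 0.02% and the CANNTG pair in 0.77%. The matches describe letters only.

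Per length, Scd1 and Thrsp were the most abundant of the 10 in each group, and Acaca was in place 8 or 9 of 10 in each. Acacb was last in 3 groups, and Elovl6 was last in WT ethanol. On the control diet Scd1 measured 816 ± 487 FPKM in WT and 1618 ± 734 in LKO (SD, n = 4 each). Acacb, the mitochondrial form of acetyl-CoA carboxylase, measured 18.2 ± 8.23 FPKM in WT and 19.4 ± 3.98 in LKO. In the WT groups no neighbours in the order of mean levels differed by more than the larger of their SDs. In LKO control 4 steps did, those below Thrsp, Me1, Mlxipl and Acaca, and in LKO ethanol the steps below Thrsp and Me1 did. Srebf1 overlaps Rai1 on the other strand by 109 bases at its 3′ end, Acaca overlaps Gm11437 and Acacb overlaps Gm13784, and since strand-specific counting is not stated, reads of these neighbours could be counted with them.

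**Figure D1:**
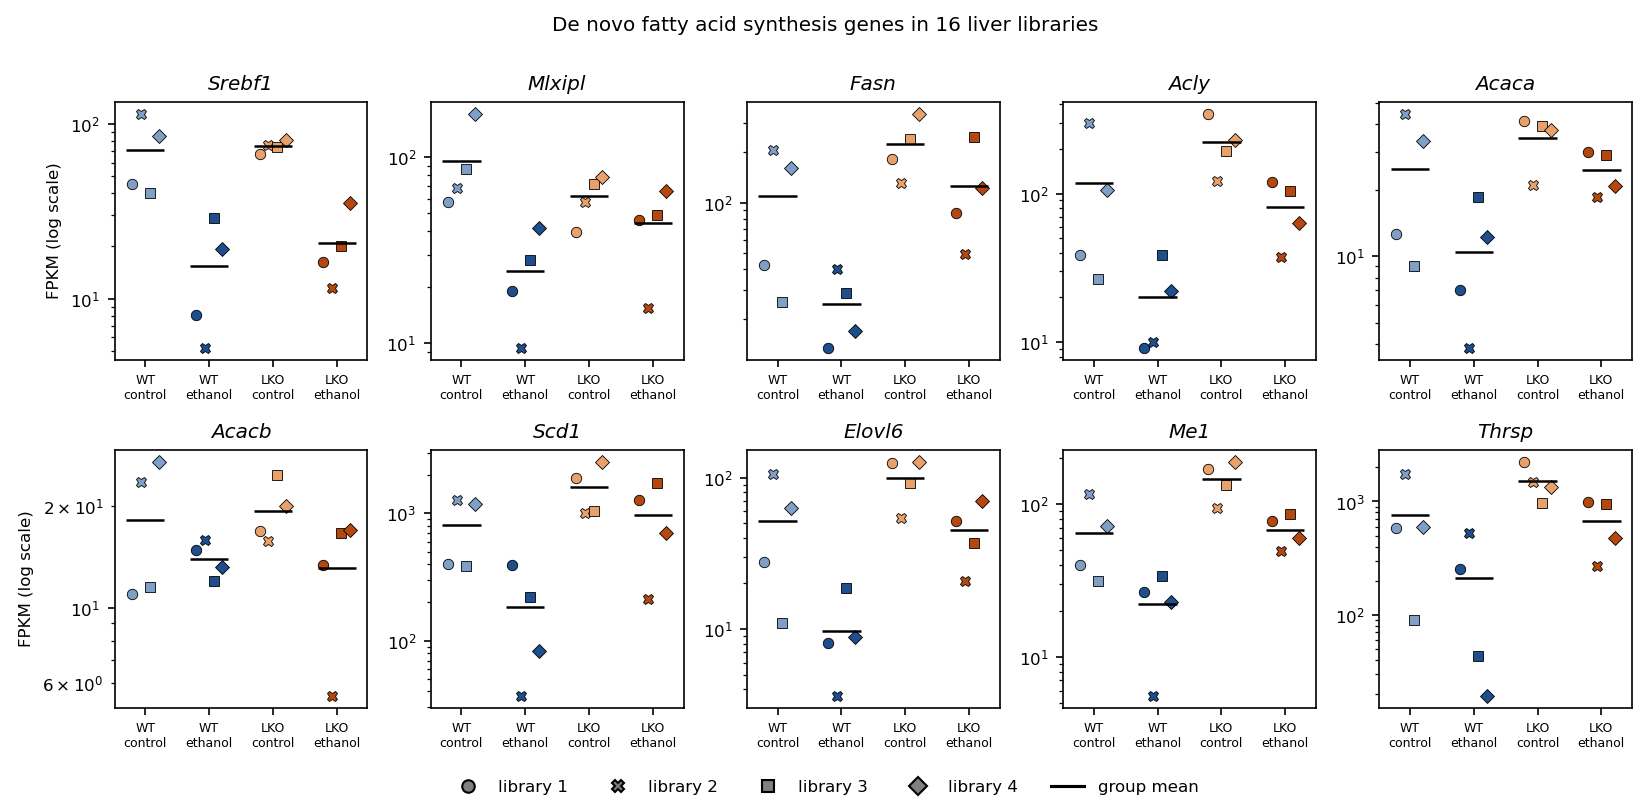
Level of each of the 10 transcripts in FPKM (log axis) in the 16 libraries, by group, with 1 symbol per library number and a bar at the group mean (n = 4). Srebf1 is separated by diet in both genotypes, while Fasn, Acaca, Elovl6 and Me1 have every LKO ethanol library above every WT ethanol library. For Acaca the margin is 18.7 against 18.6 FPKM.

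On the ethanol diet all 10 transcripts averaged lower in both genotypes, and Srebf1 fell in the fit over both genotypes by 2.09 on the log2(FPKM + 1) scale (SE 0.325, adjusted p = 0.00113). Over both genotypes 6 of the 10 members fell, namely Srebf1, Mlxipl, Acly, Scd1, Elovl6 and Me1, where 3.19% of all genes were called lower. In WT alone Srebf1 and Mlxipl fell, 2 of 10, where 1.59% of all genes were called lower. In LKO alone 0 of 10 were called at an adjusted p under 0.05 by limma or by voom on whole reads, where 0.257% of all genes were called lower. At an unadjusted p under 0.05, 9 members were lower in WT (8.46% of all genes), 3 in LKO (3.57%) and 9 over both genotypes (9.08%). The median difference of the members was −2.01 in WT and −1.03 in LKO, against −0.02 and 0.06 over all genes tested. Without WT ethanol library 2 the WT median was −1.77 for the members and 0.165 over all genes.

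Srebf1 (ENSMUSG00000020538, chromosome 11, 60199089 to 60222581, minus strand) encodes the SREBP-1 factors. It measured 45.1, 114, 40 and 85.4 FPKM in WT control libraries 1 to 4 and 8.1, 5.22, 29 and 19.3 in WT ethanol. LKO libraries held 67.4, 75.4, 73.3 and 81 FPKM on the control diet and 16.3, 11.5, 20.1 and 35.1 on ethanol. Every ethanol library lay below every control library in both genotypes, and Srebf1 was the only member of which that held in both. The mean in WT fell to 0.216 of its control value, a log2 difference of −2.27 (SE 0.459, adjusted p = 0.0133), and the LKO difference was −1.90 (SE 0.459, adjusted p = 0.0909). Without WT ethanol library 2 the WT difference was −1.90 (adjusted p = 0.0132), and the LKO difference kept its −1.90 and passed at an adjusted p of 0.0177. All groups share 1 estimate of the spread, and the adjustment runs over all genes, of which 410 were called in LKO in that fit against 48. The WT call was lost without WT control library 2 (adjusted p = 0.0531). Over both genotypes the call was kept in each of the 16 fits that left out 1 library.

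Mlxipl (ENSMUSG00000005373, chromosome 5, 135089890 to 135138382, plus strand) encodes ChREBP. In WT it measured 57.4, 68.2, 86.7 and 171 FPKM on the control diet and 19.1, 9.45, 27.9 and 41.5 on ethanol, and the 2 groups did not overlap. LKO control libraries held 39.7, 57.7, 71.7 and 78 FPKM and LKO ethanol libraries 46.1, 15.5, 49.1 and 65.8, of which 3 lay within the range of the controls. The WT difference was −1.97 (SE 0.476, adjusted p = 0.0279) and the LKO difference −0.60 (SE 0.476, adjusted p = 0.827). Their difference, the interaction, was 1.37 (SE 0.672, unadjusted p = 0.0574, adjusted p = 0.927), so the response was not shown to differ between genotypes. Without WT ethanol library 2 the WT difference was −1.60 (adjusted p = 0.0362) and the interaction 1.0 (adjusted p = 0.97). The WT call was lost without WT control library 2, 3 or 4 (adjusted p = 0.0605, 0.0567 and 0.104) and without the filter on low values (adjusted p = 0.0701). Over both genotypes Mlxipl fell by 1.29 (SE 0.336, adjusted p = 0.027), a call lost without WT control library 4, LKO control library 2, 3 or 4, or LKO ethanol library 2 (adjusted p = 0.0505 to 0.0621).

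Acly and Me1 supply acetyl-CoA and NADPH. Acly (ENSMUSG00000020917, chromosome 11, 100476353 to 100528000, minus strand), the enzyme that splits citrate, measured 38.8, 300.2, 26.7 and 106 FPKM in WT control and 9.15, 10.1, 38.6 and 22.2 in WT ethanol. The LKO values were 343, 121, 192 and 229.8 FPKM on the control diet and 119, 37.6, 104 and 63.7 on ethanol. The LKO groups did not overlap, by a margin of 121 against 119, and the WT groups did, with WT control library 3 at 26.7 below WT ethanol library 3 at 38.6. Over both genotypes Acly fell by 1.79 (SE 0.45, adjusted p = 0.0222), a call lost without WT control library 4, LKO control library 1 or LKO ethanol library 2 (adjusted p up to 0.0575). Me1 (ENSMUSG00000032418, chromosome 9, 86581371 to 86695953, minus strand), cytosolic malic enzyme, measured 39.6, 116, 31.5 and 71.7 FPKM in WT control and 26.4, 5.53, 33.6 and 22.8 in WT ethanol. For LKO the values were 169, 94.2, 133 and 188 FPKM on the control diet and 77.3, 49.5, 85.8 and 59.6 on ethanol, with no overlap. Me1 fell over both genotypes by 1.32 (SE 0.338, adjusted p = 0.0239), and leaving out WT ethanol library 2 gave −1.06 (adjusted p = 0.00884). That call was lost in 5 of the 16 fits that left out 1 library (adjusted p up to 0.0589). Members whose groups did not overlap numbered 2 in WT (4.45% of all genes) and 3 in LKO (4.14%).

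The synthase and the carboxylases did not pass. Fasn (ENSMUSG00000025153, chromosome 11, 120805846 to 120824547, minus strand), the multi-domain fatty acid synthase, measured 42.3, 208, 25.6 and 162 FPKM in WT control and 13.5, 40.2, 28.7 and 17 in WT ethanol. Libraries of LKO livers held 182, 131, 242 and 339.9 FPKM on the control diet and 86.5, 49.6, 248 and 122 on ethanol. LKO ethanol library 3 was above 3 of the 4 controls, and WT ethanol library 2, low for most members, was the highest of its group for Fasn. The difference over both genotypes was −1.35 (SE 0.433, adjusted p = 0.0653), and it passed without WT ethanol library 2 at −1.49 (adjusted p = 0.0266). Acaca (ENSMUSG00000020532, chromosome 11, 84129672 to 84401651, plus strand), the cytosolic carboxylase, measured 9.05 to 44.5 FPKM in WT control and 3.83 to 18.6 in WT ethanol, and in LKO 21.1 to 41.4 and 18.7 to 30. Its difference over both genotypes was −0.78 (SE 0.332, adjusted p = 0.17). Acacb (ENSMUSG00000042010, chromosome 5, 114146535 to 114250761, plus strand), whose malonyl-CoA restrains fatty acid import into mitochondria, differed least, by −0.44 (SE 0.242, adjusted p = 0.318, 95% interval −0.95 to 0.07), with 12 to 15.9 FPKM in WT ethanol inside the WT control range of 11 to 27.

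Scd1 and Elovl6 finish the chains. Scd1 (ENSMUSG00000037071, chromosome 19, 44394455 to 44407879, minus strand), the stearoyl-CoA desaturase, measured 404, 1283, 389 and 1191 FPKM in WT control and 396, 36.8, 222 and 83.4 in WT ethanol. Among LKO libraries the values were 1896, 1001, 1045 and 2529 FPKM on the control diet and 1265, 213, 1734 and 706 on ethanol. The diets overlapped in both genotypes, in WT through ethanol library 1 at 396 and control library 3 at 389. Over both genotypes Scd1 fell by 1.71 (SE 0.505, adjusted p = 0.0469), the closest of the 6 calls to the threshold, which was lost in 10 of the 16 fits that left out 1 library (adjusted p up to 0.106). Elovl6 (ENSMUSG00000041220, chromosome 3, 129532355 to 129638495, plus strand), which elongates palmitate to stearate, measured 27.9, 106, 11 and 62.7 FPKM in WT control and 8.08, 3.6, 18.6 and 8.8 in WT ethanol. LKO values were 126, 54, 91.9 and 127 FPKM on the control diet and 51.5, 20.8, 36.9 and 70.2 on ethanol. Elovl6 fell by 1.62 over both genotypes (SE 0.413, adjusted p = 0.0239), a call lost in 5 of those 16 fits (adjusted p up to 0.0613), and the diets overlapped through WT control library 3 and LKO ethanol library 4.

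Thrsp (ENSMUSG00000035686, chromosome 7, 97412938 to 97417730, minus strand), also called Spot 14, is a thyroid hormone responsive protein known to promote lipogenesis. It had the largest SE of the 10 in each contrast, and measured 583, 1763, 90.4 and 599.8 FPKM in WT control and 255, 523, 43.1 and 19.1 in WT ethanol. Values in LKO were 2228, 1470.3, 973 and 1353 FPKM on the control diet and 985, 267, 953 and 479 on ethanol. Its difference over both genotypes was −1.76 (SE 0.644, adjusted p = 0.107), and without WT ethanol library 2, the highest of its group, it was −2.14 (adjusted p = 0.0193). Thrsp also differed most between the sides of the split within groups, with libraries 1 and 2 higher than libraries 3 and 4 by 1.19 on the log2 scale, whereas Mlxipl was lower there by 0.85.

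Single libraries decided how many members passed. Over both genotypes the count of 6 became 8 without WT ethanol library 2 or without WT control library 3, by the addition of Fasn and Thrsp, and 1 without WT control library 4 or without LKO ethanol library 2. It was 2 without LKO control library 1 or LKO control library 4 (2.29 and 2.2% of all genes called lower) and 3 without WT control library 2 (2.2%). The shares of all genes called lower in the fits that gave 8 or 1 were 5.77% without WT ethanol library 2, 2.93% without WT control library 3, 1.9% without WT control library 4 and 1.7% without LKO ethanol library 2. In WT the count of 2 became 0 without WT control library 2 (0.498% of all genes called lower), 1 without WT control library 4 (0.517%), and 4 without WT control library 3 (1.3%) or WT ethanol library 3 (1.65%). In LKO the count of 0 became 1, Srebf1, without WT ethanol library 2 (1.42% of all genes called lower) or without LKO ethanol library 4 (0.48%). Without the filter on low values Srebf1 alone of the 6 stayed called over both genotypes, where 0.997% of all genes were called lower, and Scd1 was lost with voom (adjusted p = 0.0538) and with a pseudocount of 0.1 (adjusted p = 0.0553). With array weights 7 members fell in WT, where 7.04% of all genes were called lower and 4334 genes were called in either direction. With a term for the split, without WT ethanol library 2, 4 fell, where 4.75% were called lower and 2205 genes in either direction. The sides of the split gave the same direction. On side 1 (libraries 1 and 2, 7 in all, with 1 from WT ethanol) the ethanol difference of Srebf1 was −2.65, and on side 2 (8 libraries) it was −1.39. All 10 members were below 0 on both sides, from −0.48 (Acacb) to −2.65 on side 1 and from −0.41 (Acaca) to −1.87 (Thrsp) on side 2. Scaling by the median of ratios moved the share of all called genes that were higher from 61.9 to 49.1% in WT and from 59 to 49.3% over both genotypes.

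**Figure D2:**
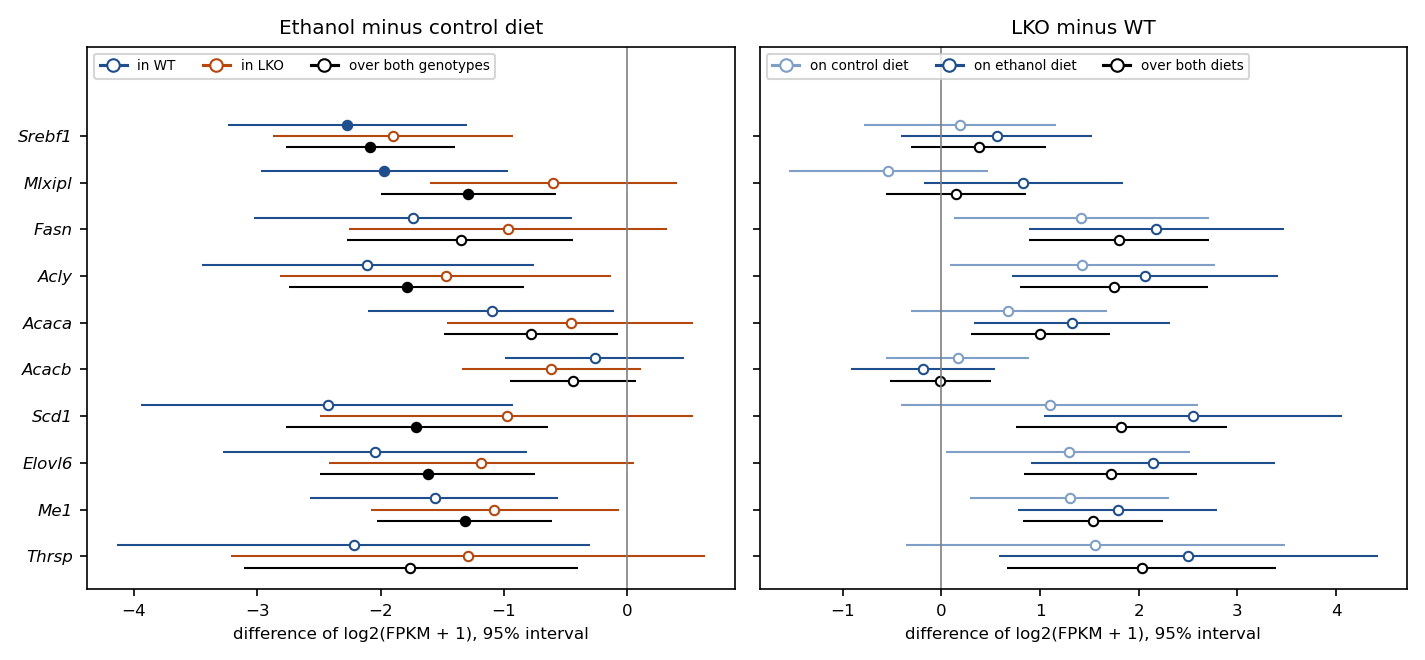
Differences of log2(FPKM + 1) with 95% intervals from the limma fit for ethanol minus control (left) and LKO minus WT (right), within each stratum and over both. Filled points passed an adjusted p under 0.05: all lie on the left, 2 in WT and 6 over both genotypes.

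Between genotypes the means of 6 enzymes (Fasn, Acly, Acaca, Scd1, Elovl6 and Me1) and of Thrsp were higher in LKO than in WT on both diets, and no member passed the test. On the ethanol diet the mean of Fasn was 126 ± 86.1 FPKM in LKO and 24.8 ± 12.1 in WT, 5.09 times as high, and that of Scd1 was 979.6 ± 662 and 184 ± 161 FPKM, 5.31 times as high. Elovl6 was at 44.8 ± 21 against 9.78 ± 6.34 FPKM, Acly at 81.1 ± 37.3 against 20 ± 13.7, and Me1 at 68 ± 16.5 against 22.1 ± 11.9 (SD, n = 4 each). The 2 groups did not overlap for 4 of the 10 members, Fasn, Acaca, Elovl6 and Me1, where 0.894% of all genes were apart with LKO higher. For Acaca the margin was 18.7 against 18.6 FPKM. By limma 0 members were called on the ethanol diet and 0 by voom, where 0.0354% of all genes were called higher, and 7 members were higher at an unadjusted p under 0.05, where 3.04% of all genes were. The log2 differences of those 7 ran from 1.32 for Acaca (SE 0.47, adjusted p = 0.306) to 2.55 for Scd1 (SE 0.714, adjusted p = 0.214). In the fit without WT ethanol library 2, Scd1 differed by 1.96 (adjusted p = 0.203), Thrsp by 3.27 against 2.5 with it (adjusted p = 0.13 against 0.312) and Acaca by 0.97 (adjusted p = 0.289). Without WT ethanol library 1 the count of called members was 1, Scd1 at an adjusted p of 0.0316, where 0.659% of all genes were called higher and 390 genes in either direction, and with array weights it was 4 (Fasn, Scd1, Me1 and Thrsp), where 2.77% of all genes were called higher and 3465 genes in either direction.

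On the control diet the groups overlapped for every member, and for Fasn WT control libraries 2 and 4 lay within the LKO range. Me1 measured 146 ± 41.5 FPKM in LKO and 64.7 ± 38.3 in WT, a log2 difference of 1.30 (SE 0.477, unadjusted p = 0.0145, adjusted p = 1), and for Fasn the means were 224 ± 89.6 and 109.6 ± 89.6 FPKM, a log2 difference of 1.42 (SE 0.612, adjusted p = 1). By limma and by voom 0 members were called (0.0% of all genes called higher), 4 were higher at an unadjusted p under 0.05 (0.797% of all genes), and 0 were apart (1.61%). The median difference of all genes was −0.10 here and 0.00 after scaling by the median of ratios, and that scaling left the direction of all 10 members as it was. Srebf1 averaged 74.3 ± 5.59 FPKM in LKO and 71.2 ± 35.1 in WT (log2 difference 0.19, 95% interval −0.78 to 1.16), and its direction turned without WT control library 3. The SD of Srebf1 in LKO control was the smallest relative to its mean among the members, with 67.4 to 81 FPKM against 40 to 114 in WT control. Mlxipl averaged 61.8 ± 17 FPKM in LKO and 95.8 ± 51.5 in WT, which is −0.54 on the log2 scale (SE 0.476, adjusted p = 1).

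LKO and WT were also compared over both diets, a comparison added after the member values had been seen. Me1 differed by 1.54 (SE 0.338, adjusted p = 0.0928). Fasn differed by 1.80 (SE 0.433, adjusted p = 0.128), Elovl6 by 1.72 (SE 0.413, adjusted p = 0.128), Acly by 1.75 (SE 0.45, adjusted p = 0.16) and Scd1 by 1.82 (SE 0.505, adjusted p = 0.198). Thrsp had the widest error, at 2.03 (SE 0.644, adjusted p = 0.289), and Acaca differed by 1.0 (SE 0.332, adjusted p = 0.318). By limma and by voom 0 of 10 passed, where 0.0974% of all genes were called higher, and 7 were higher at an unadjusted p under 0.05, where 2.35% of all genes were. The count depended on the model: it was 5 with a term for the split, without WT ethanol library 2 (Fasn, Acly, Elovl6, Me1 and Thrsp), 6 with array weights, which called Scd1 as well, and 1 with median-of-ratios scaling (Me1). The shares of all genes called higher were 1.42, 2.68 and 0.179%, and the split term and array weights called 1241 and 3848 genes in either direction. When WT ethanol library 2 was left out, Me1 passed at 1.28 (adjusted p = 0.0314, 0.34% of all genes called higher), and it also passed without WT ethanol library 1 (adjusted p = 0.0439, 0.338% of all genes). Acly passed without WT control library 2 at 2.07 (adjusted p = 0.0458, 0.124% of all genes). The 7 were above 0 on both sides of the split, for example Fasn at 1.45 and 2.53 and Thrsp at 0.92 and 3.40. Srebf1 differed by 0.38 (95% interval −0.31 to 1.06), Mlxipl by 0.15 (−0.56 to 0.86) and Acacb by −0.01 (−0.52 to 0.50). These intervals hold differences of up to 1.06 upward, for Srebf1, and 0.56 downward, for Mlxipl, and the direction for Mlxipl turned without WT ethanol library 2 (−0.04).

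The response to ethanol was not shown to differ between genotypes for any member. In the test of the interaction 0 of 10 were called by limma and by voom (0.0% of all genes), and 0 had an unadjusted p under 0.05 (3.2% of all genes). The interaction was above 0 for 9 members, with a median of 0.70 against 0.09 over all genes, from 0.37 for Srebf1 (SE 0.65) to 1.45 for Scd1 (SE 1.01). The SE of the interaction was 0.483 to 1.287 with 4 libraries a group. Without WT ethanol library 2 the interaction of Srebf1 was −0.00 and that of Me1 −0.04. The median of the members was then 0.46 against −0.12 over all genes.

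Ratios of 2 transcripts within a library take out what moves both alike, and they were added after the member values had been seen. Each other member was set against Srebf1, and Acaca against Acacb, as log2 of the FPKM ratio. Genotypes were compared by exact permutation within diets and diets within genotypes (4900 arrangements, two-sided, smallest possible p 0.000408), with adjustment over the 20 tests. Relative to Srebf1, 6 of the 9 other members (Fasn, Acly, Acaca, Scd1, Elovl6 and Me1) were higher in LKO than in WT. Those 6 were also the ones higher at an unadjusted exact p under 0.05, where 0.366% of the 10644 genes above 0 FPKM in every library had a higher ratio to Srebf1 by the same test. When WT ethanol library 2 was left out, Acaca and Scd1 no longer passed and Thrsp did. The log2 ratio of Elovl6 to Srebf1 was −0.70, −0.11, −1.87 and −0.45 in WT control and 0.90, −0.48, 0.33 and 0.65 in LKO control. On ethanol the WT libraries were at −0.00, −0.54, −0.64 and −1.13 and the LKO libraries at 1.66, 0.86, 0.87 and 1.0, with no overlap. The mean was −0.68 ± 0.59 in WT and 0.72 ± 0.61 in LKO (SD, n = 8 each), a difference of 1.40 (exact p = 0.00122, adjusted p = 0.00813), 1.13 on the control diet and 1.68 on ethanol.

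The ratio to Srebf1 was also higher in LKO for Acly by 1.39 (exact p = 0.00367, adjusted p = 0.0147) and for Me1 by 1.18 (exact p = 0.00286, adjusted p = 0.0143). For Fasn the difference was 1.43 (exact p = 0.011, adjusted p = 0.0275), and 1.77 without WT ethanol library 2 (exact p = 0.00122, adjusted p = 0.0061), whose own log2 ratio of 2.94 stood above the −0.18 to 0.74 of the other 3 in its group. Scd1 differed by 1.42 (exact p = 0.0171, adjusted p = 0.038) and Acaca by 0.68 (exact p = 0.0196, adjusted p = 0.0385), and both calls were lost when WT ethanol library 2 was left out, at 1.33 (exact p = 0.0424, adjusted p = 0.0707) and 0.68 (exact p = 0.0306, adjusted p = 0.0612). Thrsp differed by 1.64 and did not pass (exact p = 0.0996, adjusted p = 0.166), and without WT ethanol library 2 it differed by 2.24 (exact p = 0.0143, adjusted p = 0.0358). The ratios of Mlxipl (−0.25, exact p = 0.441) and of Acacb (−0.42, exact p = 0.302) did not pass. Acaca per Acacb, the cytosolic over the mitochondrial carboxylase, was higher in LKO by 1.10 (exact p = 0.00776, adjusted p = 0.0259), 0.54 on the control diet and 1.66 on ethanol. Without WT ethanol library 2 that difference was 0.86 (exact p = 0.0163, adjusted p = 0.0362).

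Between diets a ratio to Srebf1 mostly restates the fall of Srebf1 itself: 97.8% of the 10644 genes had a higher ratio on ethanol at an exact p under 0.05, against 4 of the 9 members, and the median difference over those genes was 2.19. The log2 ratio of Acacb to Srebf1 was −2.28 to −1.57 in the 8 control libraries and −1.27 to 1.61 in the 8 ethanol libraries, with no overlap, a difference of 1.70 (exact p = 0.000408, the smallest possible, adjusted p = 0.00813). Acaca to Srebf1 was higher on ethanol by 1.33 (exact p = 0.000816, adjusted p = 0.00813), Me1 to Srebf1 by 0.81 (exact p = 0.011, adjusted p = 0.0275) and Mlxipl to Srebf1 by 0.85 (exact p = 0.0212, adjusted p = 0.0385). The call of Mlxipl was lost when WT ethanol library 2 was left out (0.84, exact p = 0.0367, adjusted p = 0.0667), and those of Acacb, Acaca and Me1 were kept. Mlxipl to Srebf1 moved by 0.36 in WT and 1.34 in LKO. The ratios of Fasn, Acly, Scd1, Elovl6 and Thrsp to Srebf1 did not pass between diets, with differences of 0.34 (Acly) to 0.79 (Fasn).

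**Figure D3:**
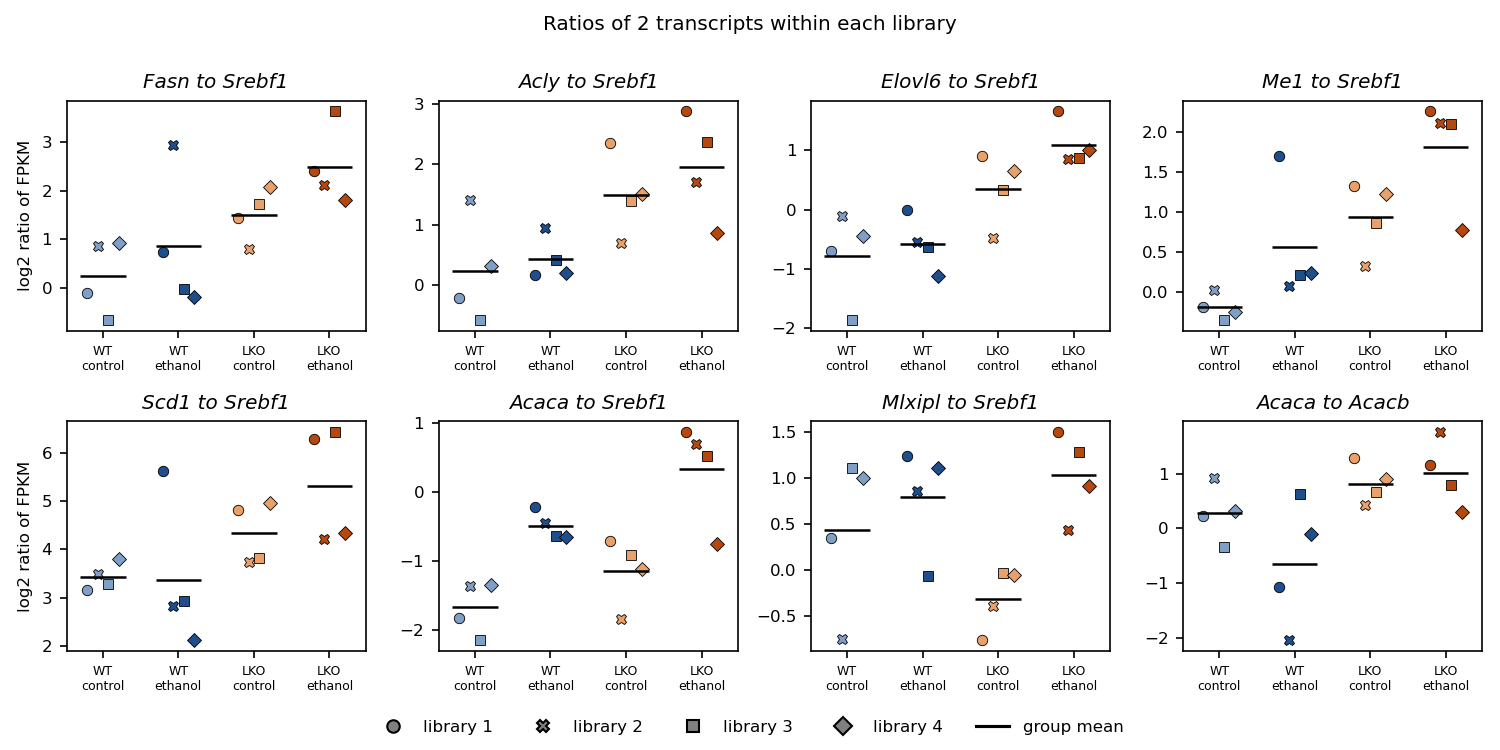
Log2 ratio of the FPKM of 2 transcripts in each of the 16 libraries, by group, with a bar at the group mean (n = 4). Elovl6 to Srebf1 has all 4 LKO ethanol libraries (0.86 to 1.66) above all 4 WT ethanol libraries, and Acaca to Srebf1 is higher on ethanol in both genotypes.

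Members also varied together within groups. The counts and correlations below were not computed over all genes, so they are not shown to be particular to the members. The first component of variation within groups, computed without the members and without WT ethanol library 2, held 40.1% of the variance. WT control library 2 was the highest of its group for 8 of the 10 members and WT control library 3 the lowest for 8, and LKO ethanol library 2 was the lowest of its group for all 10. In LKO control, library 4 was the highest for 6 and library 2 the lowest for 7. Deviations from the group mean were correlated across the 16 libraries, where the 2 values of a pair share a library and its depth. Srebf1 was compared with the 9 others and Mlxipl with the 8 left, 17 pairs, by permutation within groups (100000 resamples). Srebf1 and Elovl6 passed the adjustment (Pearson r = 0.81, permutation p = 0.00078, adjusted p = 0.0133, Spearman rho = 0.84, permutation p = 0.00124). Without the 2 libraries farthest from the median r was 0.76, and within the sides of the split it was 0.76 and 0.89. Srebf1 with Acaca (r = 0.79, rho = 0.73), Acly (r = 0.72, rho = 0.66) and Me1 (r = 0.72, rho = 0.62) each had an adjusted p of 0.0684. Mlxipl passed with none, with r from −0.36 (Thrsp) to 0.68 (Srebf1, rho = 0.73, permutation p = 0.025, adjusted p = 0.0849).

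Among Fasn, Acly, Acaca, Scd1, Elovl6 and Me1 the 15 pairwise correlations of deviations ran from 0.40 (Fasn with Me1) to 0.93 (Acly with Acaca). Their median was 0.71, given as a description with no value over all genes beside it. Thrsp did not follow the regulators over all libraries (r = −0.21 with Srebf1 and −0.36 with Mlxipl, permutation p = 0.583 and 0.264). Within side 1 of the split its r with Srebf1 was 0.63 and within side 2 it was 0.13, so the pooled sign does not hold within the sides, and without WT ethanol library 2 it was 0.01. With Mlxipl the values were 0.61 and 0.16.

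**Figure D4:**
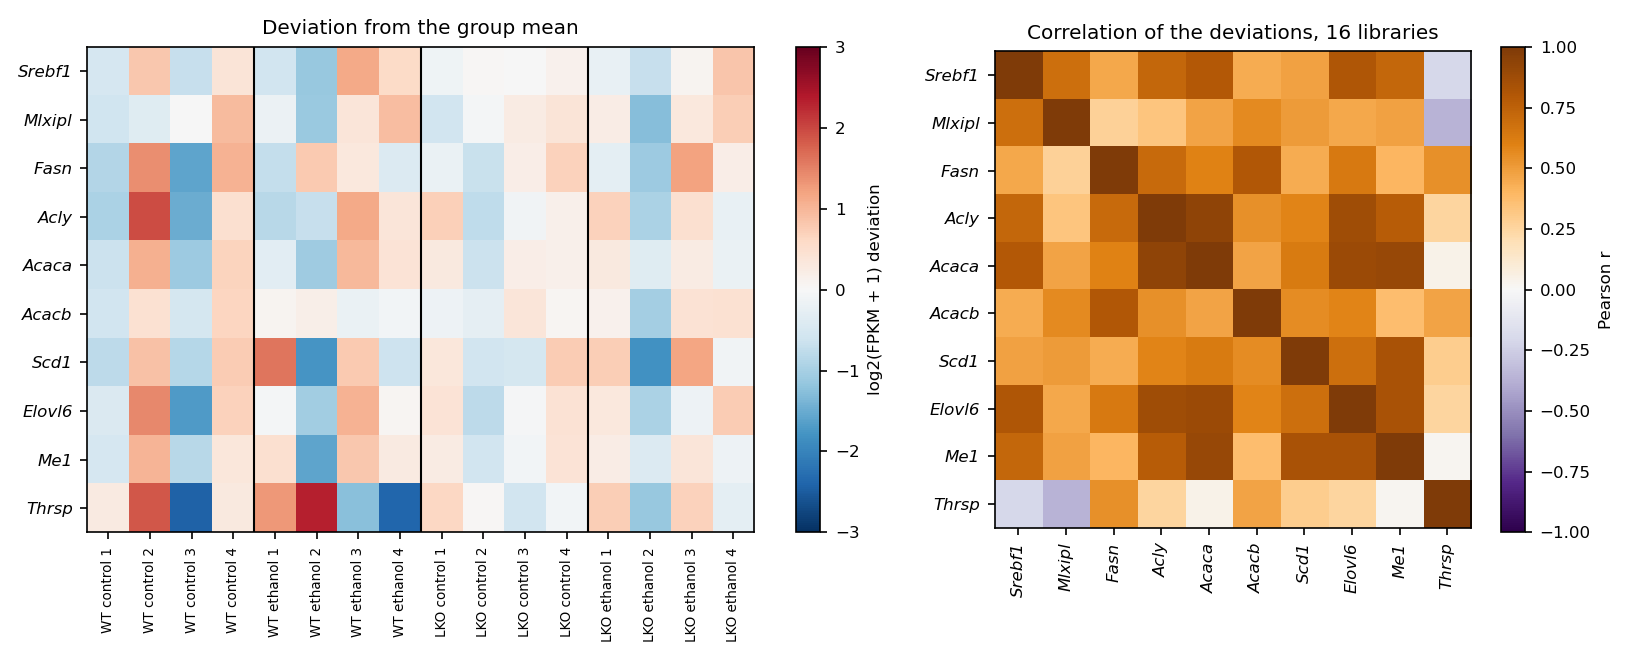
Left, deviation of each member from its group mean in each of the 16 libraries (log2(FPKM + 1)). Right, Pearson r of these deviations between members: Acly and Acaca are closest (0.93), and Thrsp is the member with negative values, to Srebf1 (−0.21) and Mlxipl (−0.36).

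Around the members, genes of the pathway were counted in lists for SREBP control, other regulators, sugar supply, acetyl-CoA and NADPH supply, malonyl-CoA disposal, and paralogs. Of the 7 SREBP control genes 1 was called higher and 1 lower over both genotypes on ethanol, where 4.59 and 3.19% of all genes were, and both are INSIG anchors that hold the SREBP precursor in the endoplasmic reticulum. Insig1, itself a target of SREBP, measured 166, 148, 86.5 and 117 FPKM in WT control and 28.5, 11.3, 60 and 22.4 in WT ethanol, and fell over both genotypes by 2.03 (SE 0.376, adjusted p = 0.00313). Insig2 measured 24.1, 34.7, 63.6 and 18.4 FPKM in WT control and 446, 33.6, 84.8 and 130 in WT ethanol, with library 2 back among the controls. In LKO, Insig2 measured 24.8 to 42.4 FPKM on the control diet and 101 to 319.9 on ethanol, without overlap, and rose by 2.85 (SE 0.596, adjusted p = 0.0469, where 0.168% of all genes were called higher), a call lost in 12 of the 16 fits that left out 1 library (adjusted p up to 0.184) and without the filter on low values (adjusted p = 0.169). Over both genotypes Insig2 rose by 2.34 (SE 0.421, adjusted p = 0.00285). The calls of Insig1 and Insig2 over both genotypes held in each of the 16 fits that left out 1 library. Mbtps2, a protease that releases SREBP, differed by 0.32 (adjusted p = 0.147), and it passed when WT ethanol library 2 was left out (adjusted p = 0.0471). The median of the list was −0.21 against 0.02 over all genes.

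Of the 11 other regulators (LXR, ChREBP partners and others), 0 passed over both genotypes by limma or by voom. At an unadjusted p under 0.05, 3 were lower over both genotypes, where 9.08% of all genes were. In WT 1 fell, where 1.59% of all genes were called lower. That gene was Mid1ip1, a relative of Thrsp that promotes acetyl-CoA carboxylase assembly, with 8.16 to 31.5 FPKM in WT control and 1.15 to 6.88 in WT ethanol (log2 difference −1.75, SE 0.438, adjusted p = 0.0328, lost in 4 of the 16 fits that left out 1 library and, at 0.0788, without the filter on low values). In LKO Mid1ip1 averaged 22.9 ± 2.51 FPKM on the control diet and 25 ± 12.3 on ethanol, a difference of 0.01 (SE 0.438), and the interaction was 1.77 (SE 0.619, unadjusted p = 0.011, adjusted p = 0.927). On ethanol it was 5.64 times as high in LKO as in WT (log2 difference 2.29, adjusted p = 0.0585, and 1.90 without WT ethanol library 2, adjusted p = 0.0645). Nr0b2, a bile acid responsive repressor, differed by −1.02 on ethanol (adjusted p = 0.061, and 0.0423 without WT ethanol library 2) and Usf2, a factor that binds the Fasn promoter, by −0.48 (adjusted p = 0.163). The list's median was −0.16 over both genotypes.

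Of the 7 sugar supply genes reported, 1 fell over both genotypes by limma, where 3.19% of all genes did, and all 7 were below 0, with a median of −0.24 against 0.02 over all genes. By voom 0 of the 7 were called, and 1 was lower at an unadjusted p under 0.05, where 9.08% of all genes were. Pklr, the liver pyruvate kinase and a classic ChREBP target, measured 75.5, 213, 67.6 and 176 FPKM in WT control and 21.6, 0.871, 52 and 20.6 in WT ethanol. In LKO it measured 153 to 284 FPKM on the control diet and 53.2 to 175 on ethanol. Pklr fell by 2.03 over both genotypes (SE 0.521, adjusted p = 0.0241) and by 3.0 in WT (SE 0.736, adjusted p = 0.0302), and without WT ethanol library 2 the WT difference was −2.01 (adjusted p = 0.0159). The WT call was lost in 4 of the 16 fits that left out 1 library (adjusted p up to 0.0993) and without the filter on low values (adjusted p = 0.0852), and voom did not make it. Its call over both genotypes was lost without WT control library 2 or 4, LKO control library 3 or LKO ethanol library 2 (adjusted p up to 0.062), and also without the filter on low values (adjusted p = 0.0765) and with voom (adjusted p = 0.0546). Between genotypes over both diets Pklr differed by 1.96 (SE 0.521, adjusted p = 0.171), and by 1.46 without WT ethanol library 2 (adjusted p = 0.0461). Slc2a2, the glucose transporter GLUT2, differed on ethanol by −0.85 (adjusted p = 0.243) and by −0.42 when WT ethanol library 2 was left out. Txnip, a sugar-responsive inhibitor of thioredoxin, differed by −0.50 (adjusted p = 0.648), and by −0.03 when that library, at 1.68 FPKM, was left out.

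Of the 11 genes of acetyl-CoA and NADPH supply, 2 fell over both genotypes and 0 rose, where 3.19% of all genes fell and 4.59% rose, and the median was −0.21. Idh1, cytosolic isocitrate dehydrogenase, measured 164 to 333 FPKM in WT control and 25.4 to 135 in WT ethanol, and fell by 1.07 (SE 0.297, adjusted p = 0.0348). Without WT ethanol library 2 it fell by 0.80 (adjusted p = 0.00411). Acss2, which makes acetyl-CoA from acetate, a product of ethanol oxidation, fell by 1.42 (SE 0.423, adjusted p = 0.0484), from 64.8 ± 60.2 to 18 ± 15.1 FPKM in WT and from 63.7 ± 36.2 to 26.7 ± 12.3 in LKO. Its extent overlaps that of Gss on the other strand. Its call held in 4 of the 16 fits that left out 1 library and that of Idh1 in 7, and neither passed without the filter on low values (adjusted p = 0.125 and 0.0798). The Acss2 call was also lost with voom (adjusted p = 0.052), with median-of-ratios scaling (adjusted p = 0.0591) and with a pseudocount of 0.1 (adjusted p = 0.0558). Pgd, of the pentose phosphate pathway, differed by 0.62 (adjusted p = 0.249). In the list of AMPK and malonyl-CoA disposal 8 of 9 genes passed the filter and 0 passed by limma or by voom, with a median of 0.01. At an unadjusted p under 0.05, 2442 of all 11298 genes passed in either direction and 9.08% were lower. In the list 0 were lower and 1 was higher at that threshold. That gene was Trib1, a pseudokinase that restrains lipogenic factors, at 0.47 (adjusted p = 0.188, and 0.013 without WT ethanol library 2). Prkaa2 and Prkag2, subunits of AMPK, differed by −0.34 and −0.27 on ethanol (adjusted p = 0.491 and 0.529).

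Of the 12 paralogs 8 passed the filter (Me3, Scd3, Scd4 and Elovl7 did not), and 1 fell on ethanol over both genotypes, where 3.19% of all genes did. Elovl3, which elongates saturated and monounsaturated chains, measured 2.11, 0.842, 3.68 and 1.7 FPKM in WT control and 0.241, 0, 0.0276 and 0 in WT ethanol, the last 4 from 7, 0, 1 and 0 reads. In LKO it measured 6.09, 7.26, 5.78 and 33 FPKM on the control diet and 5.09, 1.62, 3.67 and 4.46 on ethanol. Every LKO library lay above every WT library on the same diet. Over both genotypes Elovl3 fell on ethanol by 1.36 (SE 0.303, adjusted p = 0.0107), and over both diets it was higher in LKO by 1.98 (SE 0.303, adjusted p = 0.0112), each held in the 16 fits that left out 1 library. Without the filter on low values the genotype call was lost (1.98, adjusted p = 0.091). It was the only pathway gene called between genotypes over both diets, where 0.0974% of all genes were called higher. The scale understates changes of a transcript this low. Elovl2 differed on ethanol by −1.25 (adjusted p = 0.0532) and Elovl1 by 0.66 (adjusted p = 0.0587), and both passed when WT ethanol library 2 was left out, at −0.87 (adjusted p = 0.00402) and 0.74 (adjusted p = 0.0105).

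**Figure D5:**
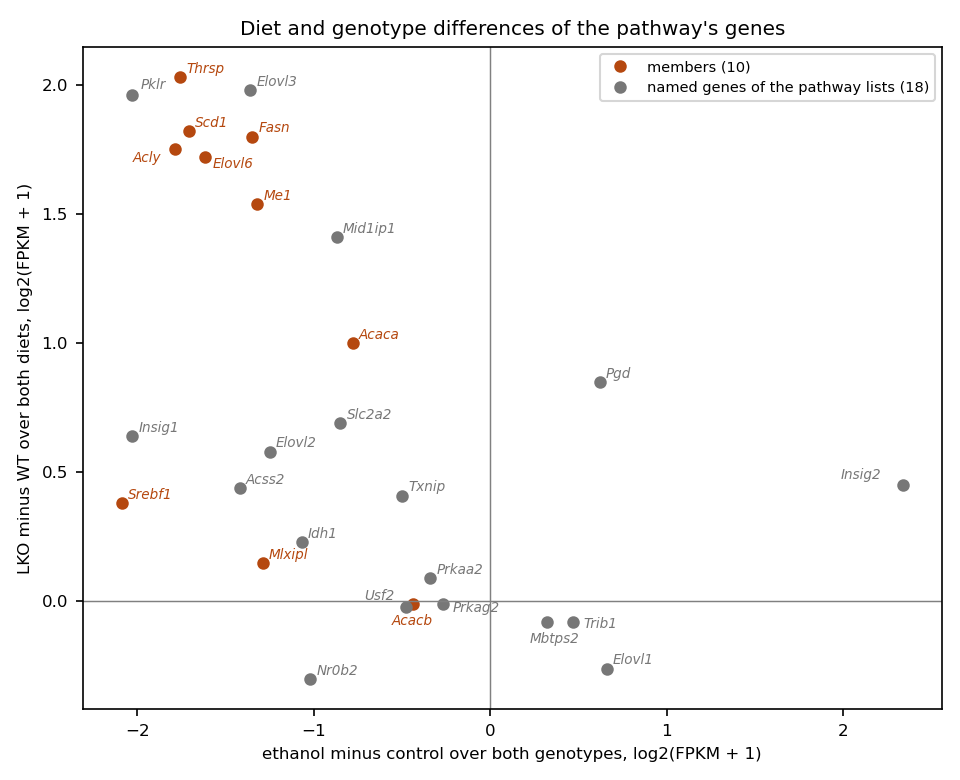
Each of the 10 members and the 18 named genes of the pathway lists by its ethanol difference over both genotypes (horizontal) and its LKO difference over both diets (vertical), both of log2(FPKM + 1) from the same 16 libraries. Insig2 lies far right (2.34), and Elovl3 is the gene called in both directions of the plot (−1.36 and 1.98).

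Genes other than the members with the closest pattern were found by the Pearson r of log2(FPKM + 1) over the 16 libraries with the mean standardised profile of the 10 members. The members' own r ran from 0.647 (Acacb) to 0.966 (Elovl6). The 8 closest were Hcn3 (0.960), Aacs (0.936), Gm15318 (0.911), Ttc39c (0.906), Pklr (0.904), Uqcc1 (0.895), Slc38a3 (0.893) and Mid1ip1 (0.887). Aacs, a synthetase that activates acetoacetate in the cytosol, measured 34 ± 18.1 FPKM in WT control, 6.23 ± 2.9 in WT ethanol, 38.5 ± 10.3 in LKO control and 24.4 ± 7.2 in LKO ethanol. Hcn3, a cation channel gene, overlaps the 3′ end of Pklr on the other strand by 711 bases (chromosome 3, 89146074 to 89146784). Since strand-specific counting is not stated, reads of Pklr could be counted with Hcn3 there. Without WT ethanol library 2 the r of these 8 was 0.863 to 0.968.

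Marker genes of other liver cells were checked over the same libraries. Over both genotypes on ethanol 1 of 5 stellate markers (Des, 0.57, adjusted p = 0.0379), 1 of the 2 bile duct markers tested (Sox9, 0.79, adjusted p = 0.016) and the 1 adipocyte marker tested (Fabp4, 1.83, adjusted p = 0.00304) rose, where 4.59% of all genes were called higher. Sox9 was low, at 0.202 to 3.01 FPKM, and the other bile duct marker tested, Spp1, differed by −0.36 (adjusted p = 0.531). The other 3 bile duct and 4 adipocyte markers did not pass the filter on low values. The Des call was kept in 4 of the 16 fits that left out 1 library (adjusted p up to 0.0841) and was not made by voom, while those of Sox9 and Fabp4 were kept in all 16 and by voom. In WT alone Marco, a scavenger receptor of macrophages and 1 of 7 macrophage markers, rose by 1.71 (adjusted p = 0.0379), with no overlap of the groups, where 2.58% of all genes were called higher. That call was kept in 7 of the 16 fits (adjusted p up to 0.117) and was not made by voom. Des (0.93, adjusted p = 0.0296) and Fabp4 (1.98, adjusted p = 0.0267) also rose in WT, each in 11 of the 16 fits. Voom made the WT call of Fabp4 but not that of Des, and without the filter on low values both were lost (adjusted p = 0.0701 for Fabp4 and 0.0681 for Des). In all 16 libraries 0 markers fell on ethanol over both genotypes by limma or by voom. At an unadjusted p under 0.05, 1 hepatocyte, 1 macrophage and 1 endothelial marker were lower, where 9.08% of all genes were. Between genotypes over both diets 0 markers were called by limma or voom. At an unadjusted p under 0.05, 1 hepatocyte marker was higher and 1 hepatocyte, 1 macrophage and 1 stellate marker were lower. There 2.35% of all genes were higher, and 1176 of 11298 passed in either direction. On the ethanol diet Marco (−1.75), Apoa1 (−1.25, and −0.77 without WT ethanol library 2), Cd68 (−1.05) and Des (−0.73) were lower in LKO at that threshold. None of them was called (adjusted p = 0.172 to 0.388), and 1347 of 11298 genes passed the unadjusted threshold in either direction. The summed adipocyte markers were 6.35 to 15.3 FPKM in WT control, 22.1 to 76.6 in WT ethanol, 7.17 to 19.8 in LKO control and 20.7 to 90.5 in LKO ethanol. That sum was nearly all Fabp4: Lep was at 0 in all libraries, and Adipoq was at most 0.0398, Cfd at most 0.446 and Plin1 at most 0.475 FPKM. The 6 hepatocyte markers summed to 58552 to 72309 FPKM in WT control, 41915 to 71308 in WT ethanol, 54989.9 to 71199 in LKO control and 54187 to 69797 in LKO ethanol, and 0 of them were called by limma or voom over both genotypes on ethanol. In the fit without WT ethanol library 2 more markers passed over both genotypes, where 14.7% of all genes were called higher and 5.77% lower. The hepatocyte marker Cps1 rose by 0.83 (adjusted p = 0.00444, against 0.28 with that library), Marco by 1.0 (adjusted p = 0.0336) and the endothelial marker Pecam1 by 0.63 (adjusted p = 0.0424). Ttr, also a hepatocyte marker, fell by 0.54 (adjusted p = 0.0187). Spp1, of the same bile duct list as Sox9, fell by 0.64 (adjusted p = 0.0128). The part of these markers in the results was not tested.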

How the data were processed

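Liver RNA was sequenced in 16 libraries, 4 in each of 4 groups taken from the labels. The authors deposited 1 table of FPKM values for 35275 gene IDs (34490 with a symbol). The submitters' processing notes name fastp, STAR 2.6.1, HTSeq, DESeq2 and mm10. Their roles, the annotation and any strand setting are not given in the sources used here. The titles carry a different number for each library and none is shared between groups, so libraries were numbered in accession order and not paired. The genes and lists were chosen with earlier results of these data known.

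Differences were tested on log2(FPKM + 1) with limma 3.58.1 (R 4.3.3, empirical Bayes with a trend, two-sided) in 1 fit of all 16 libraries. The 11298 genes with an FPKM of at least 1 in at least 4 libraries were kept. Adjusted p-values are Benjamini-Hochberg values over these genes within each of 7 contrasts, called under 0.05. Differences understate the change of low genes. LKO against WT over both diets and the ratios were added after the member values were seen. Named genes were the 10 members, up to 3 genes of each pathway list with the smallest adjusted p over both genotypes on ethanol, any listed gene called in a contrast, and the 8 genes most like the members. Whole reads were recovered from the steps of the deposited FPKM values, and 100.0% of values lay within 0.001 of a whole read. Depth was 9890475 to 24768569 reads per library, and library totals matched the recovered counts to within 0.022%. Voom on these reads, no filter, a pseudocount of 0.1, median-of-ratios scaling, array weights, a term for the split without WT ethanol library 2, and leaving out each library were the alternatives. The procedure was tested on simulated counts with an equal relative spread for all genes, and with no aberrant library and no split within groups. That test therefore does not cover these features of the data. One gene of the sugar supply list is not reported here.

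RefSeq promoter windows and GENCODE M21 positions are on GRCm38. Permutation tests used scipy 1.17.1 and numpy 2.4.6.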

Additional observations from a re-analysis of the deposited data

Results flagged for a closer look

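Groups of 4 values, 176 in all, covered the members, the other named genes and the ratios. In them 8 values lay apart from the other 3 of their group by more than Dixon's 95% critical value for the gap over the range. Some of the 8 came from the same library, and chance alone gives about 1 such group in 20. No group of the 10 members' levels was among them. Elovl3 in LKO control library 4 was at 33.0 FPKM against 5.78 to 7.26 in the others (gap 0.946 of the range), and in WT ethanol library 1 it was at 0.241 FPKM against 0 to 0.0276, from 7 reads. Acss2 in WT ethanol library 1 was at 40.6 FPKM, where the others were at 8.08 to 12.1. Trib1 in WT ethanol library 2, the library that stands apart in depth and mitochondrial share, was at 7.65 FPKM and Ttc39c there at 8.42 FPKM, both the lowest of the group. Ttc39c in LKO ethanol library 2 was at 22.5 FPKM, also the lowest. The log2 ratio of Me1 to Srebf1 was 1.7 in WT ethanol library 1, where the others were at 0.08 to 0.24, and 0.77 in LKO ethanol library 4, where the others were at 2.09 to 2.25.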

How the results depend on the processing

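The direction of the ethanol difference over both genotypes was kept for all 10 members in every alternative run, and Srebf1 passed in each of them. Over the differences of single genes and the fits that left out 1 library, 1383 of 1488 values kept their direction and side of the threshold, 57 lost significance, 33 gained it and 15 reversed, and for the other alternatives the counts were 476, 16, 54 and 12 of 558. The cause of these changes was not tested.

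Members called in WT on ethanol (2) numbered 1 without the filter on low values (0.41% of all genes called lower), 4 with median-of-ratios scaling (3.44%), 7 with array weights (7.04%) and 4 with the split term (4.75%). In LKO (0) they numbered 1 with median-of-ratios scaling (0.671%), 1 with array weights (3.1%) and 1 with the split term (4.2%), and over both genotypes (6) they numbered 1 without the filter (0.997%). LKO against WT, members called numbered 4 on the ethanol diet with array weights (2.77% of all genes called higher), and over both diets 1 with median-of-ratios scaling (0.179%), 6 with array weights (2.68%) and 5 with the split term (1.42%), against 0. Leaving out 1 library gave 0 to 4 members in WT (0.498 to 2.41% of all genes called lower), 0 to 1 in LKO (0.0266 to 1.42%) and 1 to 8 over both genotypes (1.7 to 5.77%). For LKO against WT it gave 0 to 1 on the ethanol diet (0.0 to 0.659% called higher) and 0 to 1 over both diets (0.0532 to 0.34%).

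All genes called without the filter were 283 for ethanol in WT, 18 in LKO, 3 for LKO against WT on ethanol diet and 5 over both diets. With median-of-ratios scaling they were 756 in WT, 130 in LKO and 1333 over both genotypes, and the share of calls that were higher moved for LKO against WT from 44.4 to 66.7% on ethanol diet and from 68.8 to 83.3% over both diets. With voom on whole reads they were 5 for LKO against WT on ethanol diet and 10 over both diets. With array weights they were 4334 for ethanol in WT, 869 in LKO, 4147 over both genotypes, 260 for LKO against WT on control diet, 3465 on ethanol diet, 3848 over both diets and 506 for the interaction. Those weights ran from 0.042 for WT ethanol library 2 to 4.998 for WT ethanol library 3. With the split term they were 2205 in WT, 1205 in LKO, 3652 over both genotypes, 8 for LKO against WT on control diet, 172 on ethanol diet and 1241 over both diets. Leaving out 1 library gave 145 to 1036 in WT, 6 to 410 in LKO, 502 to 2290 over both genotypes, 1 to 4 for LKO against WT on control diet, 1 to 390 on ethanol diet, 8 to 99 over both diets and 0 to 6 for the interaction. The main counts were 472, 48, 879, 1, 9, 16 and 0.

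The reversed values included the interaction of Acly (0.63 in the main fit), Srebf1 for LKO against WT on ethanol diet (0.56) and Txnip on ethanol over both genotypes (−0.50). With array weights Srebf1 was at −0.268 for LKO against WT on ethanol diet, −0.057 over both diets and −0.423 in the interaction, and Acacb was at 0.161, 0.118 and 0.085. Over both genotypes on ethanol, array weights put Txnip at 0.116, Prkaa2 at 0.089 and Prkag2 at 0.019. Acacb over both diets was at 0.063 with median-of-ratios scaling and 0.05 with the split term, and the interaction of Me1 at −0.038 with the split term. Leaving out 1 library, LKO against WT on control diet ran from −0.038 to 0.458 for Srebf1 and −0.028 to 0.381 for Acacb. For Acacb it ran from −0.337 to 0.154 on ethanol diet and −0.107 to 0.16 over both diets, and for Mlxipl from −0.037 to 0.362 over both diets. The interaction ran from −0.003 to 0.754 for Srebf1, −0.022 to 1.125 for Acly and −0.041 to 0.765 for Me1. The log2 ratio of Thrsp to Srebf1 on ethanol was −0.2 without WT ethanol library 2. The correlation of Srebf1 with Thrsp was 0.63 and 0.13 within the sides of the split, 0.01 without WT ethanol library 2 and 0.16 without the 2 farthest libraries, and that of Mlxipl with Thrsp was 0.61 and 0.16 within the sides. No paired analysis was run: each title carries a number of its own, and no label states which libraries belong together. Some control and ethanol libraries of the same genotype carry consecutive title numbers. Whether these mark pairs is not stated, and a fit paired on them was not run.

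Depth limits little here for the members, and the spread between 4 libraries a group limits the tests. The feeding state and the time of sampling are not given in the sources used here, and their part in the spread was not tested.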
